A study of Mus musculus with 25 samples.

Results

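The genes described here were 31 transcripts that mark T cells, B cells and cytotoxic lymphocytes, measured in perigonadal white adipose tissue (pgWAT) of refed mice. They were chosen by gene name, 31 of 37074 distinct gene names on the array. Where a gene had several probes, the brightest one, by its mean over the 25 arrays, stood for it. The set held 20 T cell genes, 7 B cell genes and 4 genes of cytotoxic and natural killer (NK) cells.

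T cells recognise antigen through a receptor whose signal runs through the CD3 chains and the kinases Lck and Zap70, with CD4 or CD8 as coreceptor. B cells signal through the receptor chains CD79a and CD79b, and cytotoxic T cells and NK cells kill with granules that hold Nkg7 and granzyme B. Visceral fat of lean mice is known to harbour all of these cells, among them regulatory T cells that carry Foxp3, and to hold lymphoid clusters that are rich in B cells.

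The samples were pgWAT of male C57BL6/J mice that had been fasted for 24 h and then refed for 18 h with food and water that held 20% glucose, a treatment that all groups shared. Knockout mice of 1 line lacked exon 1b of Mlxipl and with it only the β isoform of the glucose-responsive factor ChREBP (ChREBPβ KO, 6 arrays), and were compared with wild-type littermates (ChREBPβ WT, 7 arrays). Knockout mice of the other line were Mlxipl-null and lacked both isoforms (total ChREBP KO, 5 arrays), with littermates of their own (total ChREBP WT, 7 arrays). ChREBPβ KO mice were made with CRISPR/Cas9, and which founder the arrays come from is not given in the sources used here. Both deletions are of the whole animal, lymphocytes included, and a difference between the wild types cannot be told apart from a difference in breeding or housing of the lines. The comparisons ask how lymphocyte transcripts in fat differ when ChREBPβ or all ChREBP is missing, whether these effects differ, and how far apart the wild types are.

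Levels are log2 values of the authors' normalised table, in which the median of every array was 7.96 (7.957 to 7.962), and Ctla4 and Blk, which that table did not hold, were taken from quantile-normalised scanner intensities. Each array had 73.0% to 77.9% of its probes well above background, and precision is set by how many arrays a group had. The brightest probe of Mlxipl itself was at 15.98 ± 0.16 (SD, n = 7) in wild types of the total ChREBP line against 14.21 ± 0.08 (SD, n = 5) in their knockouts, and at 15.07 ± 0.27 (SD, n = 7) in wild types of the ChREBPβ line against 14.34 ± 0.31 (SD, n = 6) in their knockouts. Liver transcripts were present in these fat samples at levels that differed between the lines. The mean level of 6 liver genes was 15.4 ± 1.3 (SD, n = 7) in ChREBPβ WT beside 14.1 ± 1.7 (SD, n = 6) in their knockouts. It was 10.2 ± 2.2 (SD, n = 7) for the total ChREBP WT arrays beside 7.56 ± 0.47 (SD, n = 5) for total ChREBP KO. Kidney transcripts varied too. Over the ChREBPβ WT arrays the mean of 4 kidney genes ran from 6.29 to 12.49, with 12.22, 12.49 and 10.71 for replicates 1, 3 and 7. Among the ChREBPβ KO arrays it ran from 6.14 to 9.27. The other line spanned only 6.47 to 7.28 for wild types and 6.38 to 7.07 for knockouts. Adipocyte genes were at 15.9 to 16.3 on average on every array. In total ChREBP WT replicate 2, the mean of 2 epididymis genes was 12.03 against 6.56 to 9.39 on the other arrays.

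Of the 31 members, 27 were well above background on all 25 arrays. Cd8a reached that mark on 24 arrays and Bcl11b, a T cell transcription factor, on 23. Ctla4, an inhibitory receptor of activated and regulatory T cells, did so on only 3 arrays and Blk, a B cell kinase, on only 2, so that their levels near 4.5 were those of the array's background. In whole tissue, fewer cells of a type and less RNA per cell cannot be told apart.

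**Figure D1:**
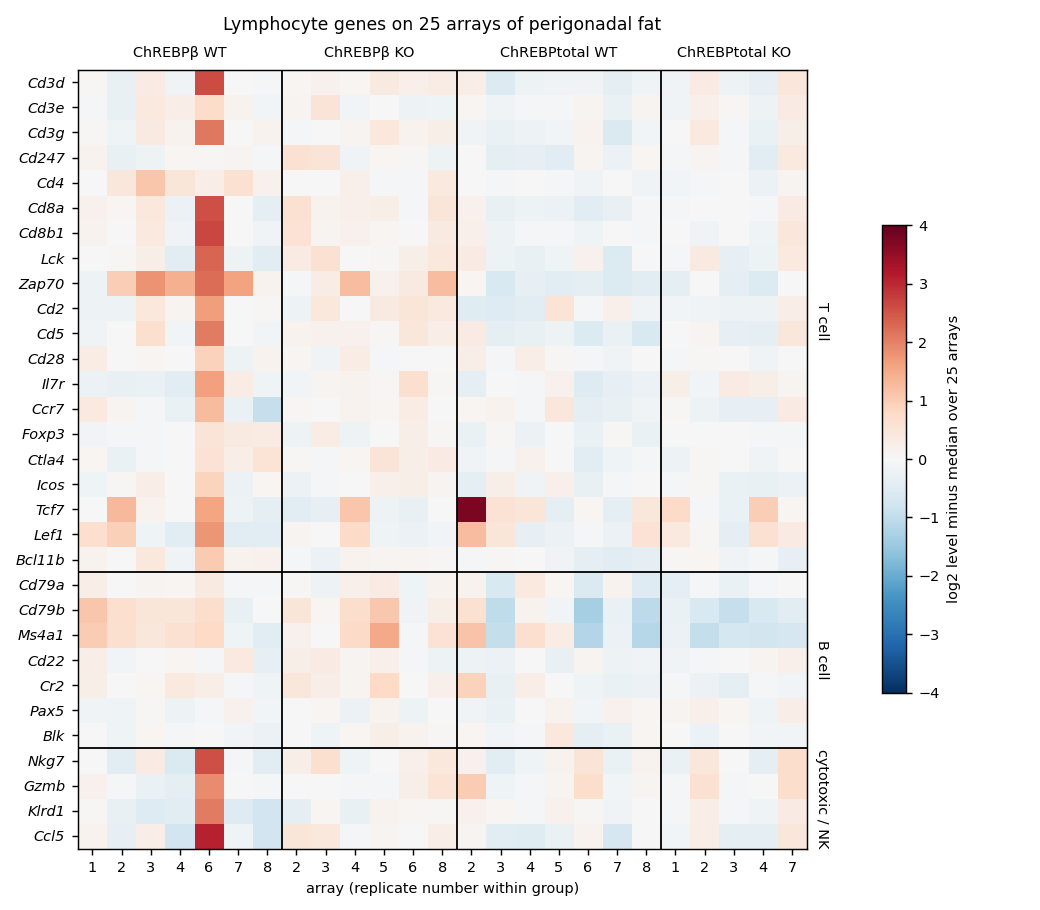
Each row is 1 gene and each column 1 array, labelled by its replicate number within the group, and the colour is the log2 level minus the gene's median over 25 arrays. ChREBPβ WT replicate 6 was the highest array for 21 of the 31 genes, all of them T cell or cytotoxic genes.

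One fat sample stood apart. ChREBPβ WT replicate 6 had the highest level of all 25 arrays for 17 of 20 T cell genes and 4 of 4 cytotoxic genes, but for 0 of 7 B cell genes. The next most frequent was total ChREBP WT replicate 2, which was highest for 2 members. Over the T cell genes the median rise of replicate 6 above the median of the other 24 arrays was 1.64 log2 units, over the cytotoxic genes 2.35 and over the B cell genes 0.29. Of the 29 members in the authors' table, 11 lay more than 1 log2 unit above every other array on this sample. The same held for 111 of all 40561 probes, or 0.274%.

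Cytotoxic genes stood farthest out there. Ccl5, a chemokine released by effector T cells and NK cells, was at 14.03 on this array, while the other 24 arrays ran from 10.17 over a median of 10.91 to 11.43. Nkg7, a granule membrane protein, was at 11.03 against 7.87 to 9.14 elsewhere, with a median of 8.44. Klrd1, the CD94 subunit of NK cell receptors, was at 9.53 against 6.68 to 7.79, and Gzmb, granzyme B, at 7.99 against 5.69 to 7.11. For all 4 genes this array lay above the other 24.

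Most chains of the T cell receptor complex and both chains of the CD8 coreceptor were highest there as well. Cd3d was at 10.64 against 7.49 to 8.49 on the other arrays and Cd3g at 9.16 against 6.50 to 7.48, which is 6.22-fold and 4.29-fold above their medians. Cd8a, one chain of the coreceptor of cytotoxic T cells, was at 7.67 against 4.66 to 5.70. Cd8b1, the other chain, was at 9.95 against 7.08 to 7.87. Both chains thus stood about as far out as Cd3d, 6.03-fold and 6.37-fold above the median. Lck, the kinase bound to the coreceptors, was at 11.19 against 8.32 to 9.47. The adhesion receptor Cd2 (11.04), the inhibitory receptor Cd5 (8.99) and the interleukin-7 receptor Il7r (10.34) were likewise highest on this array.

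Other T cell genes stood out less or not at all. Cd3e, a further receptor chain, was highest on this array at 10.099 but only 1.73-fold above the median, with the other arrays at 9.06 to 9.88. Cd4, the coreceptor of helper T cells, was at 10.60 there, rank 6 from the top and 0.27 above the median of the others. Cd247, the ζ chain of the receptor, was at 10.38, within the range of 9.88 to 10.95 on the other arrays. Tcf7, a factor of naive and memory T cells, was at 7.65 and second to total ChREBP WT replicate 2, while Lef1, its close relative, was highest on replicate 6 at 8.40. Foxp3, the factor of regulatory T cells, lay 0.53 above the median of the others at 6.35, and Icos, a costimulator, 0.92 above it at 7.36. The costimulator Cd28 was at 8.08 and Ccr7, which guides naive T cells to lymph nodes, at 8.85.

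B cell genes were not outside the range of the other arrays on this sample. Cd79a was at 5.85 and second from the top, while Cd79b at 10.05 and Ms4a1 (CD20) at 8.61 were both at rank 4. The complement receptor Cr2 was at 7.72 and rank 5, and Blk, Cd22 and Pax5 ranked between 9 and 15.

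Genes outside the member set were also high in this sample. Of 13 further NK and cytotoxic genes all 13 were highest on replicate 6, with a median rise of 1.81, and of 17 further T cell genes 14 were, with a median rise of 1.38. Among 16 macrophage genes 13 were highest there, by a smaller median of 0.91. Of 17 further B cell genes 10 were highest, with a median of 0.86, while Fcer2a and Fcmr were among the 7 that were not. None of 8 adipocyte, 8 endothelial, 6 lymphoid stroma, 6 neutrophil or 5 mast cell genes was highest there. The liver genes had a mean of 15.99 on this array, within the 13.0 to 16.7 of its group. The part of these cells in the values of the members was not tested.

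**Figure D2:**
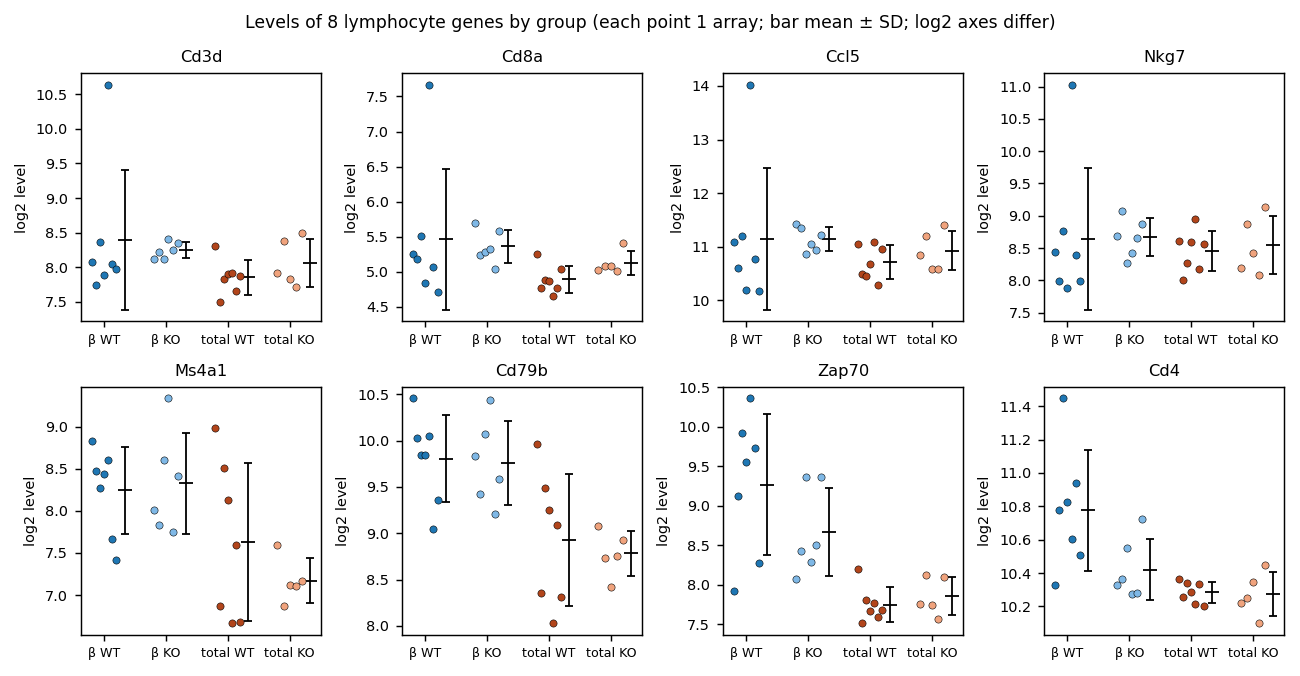
Log2 levels of 8 members, with 1 point per array and the mean ± SD beside each group; each panel has its own axis. In the panels of Cd3d, Cd8a, Ccl5 and Nkg7 a single ChREBPβ WT array lies far above all others, whereas in those of Ms4a1, Cd79b, Zap70 and Cd4 the spread runs over many arrays.

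The start regions of 3 genes that stood out together on this array are given here. The windows are the 250 bases before the RefSeq start of each gene on GRCm38.p6. Capitals mark 2 short motifs of factors that work in lymphocytes, the ETS core AGGAAG, which on the other strand reads CTTCCT, and the RUNX core TGTGGT, which there reads ACCACA. Both strands were searched, and the motifs do not overlap each other in these windows. Cd3d lies at chr9:44981536-44981785 on the plus strand, Nkg7 at chr7:43436888-43437137 on the plus strand and Gzmb at chr14:56262335-56262584 on the minus strand. Zap70, at chr1:36761548-36761797, and Cd79a, at chr7:24897247-24897496, both on the plus strand, are given for comparison.
Cd3d: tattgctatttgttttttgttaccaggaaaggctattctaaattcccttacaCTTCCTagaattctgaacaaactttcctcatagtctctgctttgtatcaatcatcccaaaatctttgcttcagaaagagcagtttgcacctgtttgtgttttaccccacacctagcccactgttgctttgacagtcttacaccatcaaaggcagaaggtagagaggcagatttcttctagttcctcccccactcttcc
Nkg7: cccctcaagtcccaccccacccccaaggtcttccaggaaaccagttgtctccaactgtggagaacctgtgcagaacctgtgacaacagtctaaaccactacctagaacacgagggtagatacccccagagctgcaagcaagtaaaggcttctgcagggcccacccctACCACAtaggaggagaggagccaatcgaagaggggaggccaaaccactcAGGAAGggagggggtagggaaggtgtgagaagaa
Gzmb: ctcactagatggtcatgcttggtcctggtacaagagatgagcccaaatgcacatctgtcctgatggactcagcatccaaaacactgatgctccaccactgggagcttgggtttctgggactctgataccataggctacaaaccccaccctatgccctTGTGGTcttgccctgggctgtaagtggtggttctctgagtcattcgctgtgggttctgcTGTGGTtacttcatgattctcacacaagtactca
Zap70: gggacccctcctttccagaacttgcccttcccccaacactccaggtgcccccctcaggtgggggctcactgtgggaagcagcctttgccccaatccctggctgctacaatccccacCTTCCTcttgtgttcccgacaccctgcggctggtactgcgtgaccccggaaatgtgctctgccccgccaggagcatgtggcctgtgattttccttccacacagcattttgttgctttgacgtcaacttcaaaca
Cd79a: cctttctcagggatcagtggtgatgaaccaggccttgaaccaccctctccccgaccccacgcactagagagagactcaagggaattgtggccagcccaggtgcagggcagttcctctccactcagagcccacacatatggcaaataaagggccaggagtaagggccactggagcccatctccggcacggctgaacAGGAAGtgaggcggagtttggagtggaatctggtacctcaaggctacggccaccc

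The matches lay 198 bases before the start in Cd3d, 83 and 34 bases before it in Nkg7, 93 and 34 in Gzmb, 134 in Zap70 and 55 in Cd79a. The table of start regions held 20 of the 31 members. The ETS core was in 10 of these 20 windows, against 29.5% of all 32851 windows of the same length, and in 8 of 14 T cell genes. The RUNX core was in 3 of 20 (Lck, Nkg7 and Gzmb), against 14% of all windows. The letters CACGTG, an E-box core, were in 0 of 20 windows and in 6.02% of all windows. A match of letters is a description of the sequence, not a binding site.

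Without ChREBPβ, no lymphocyte gene changed past the threshold. In ChREBPβ KO against ChREBPβ WT, 0 of 29 members had a limma adjusted p under 0.05 (Benjamini-Hochberg over 40561 probes), and over all probes the share was 0%. The unadjusted limma p was under 0.05 for 1 member, Cd4, which was lower, against 9.02% of all probes (3.07% lower and 5.95% higher). No member had groups without overlap, as 0.0616% of probes had in the higher and 0.0074% in the lower direction. The median difference of the members was -0.07 log2 units beside 0.02 over all probes, and 20 of 29 members were lower. Cd3e, another receptor chain and the reference for T cells here, differed by -0.13 (95% interval -0.44 to 0.19), Cd79a by -0.03 (-0.31 to 0.25) and Nkg7 by 0.03 (-0.71 to 0.77), so that the interval of the cytotoxic gene was the widest of these 3.

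These values differed without replicate 6, which was set apart because it was highest for most members. P-values from fits without this array therefore rest on a choice made from the same values. Without it the median of the members in the same comparison was 0.14, and 22 of 29 were higher in ChREBPβ KO. All 4 cytotoxic genes were then higher, with a median of 0.42. Nkg7 was higher by 0.46 (95% interval 0.04 to 0.88), Ccl5 by 0.50 (0.09 to 0.92) and Klrd1 by 0.38 (0.13 to 0.63), each at an unadjusted limma p under 0.05 and at adjusted p-values of 0.48, 0.43 and 0.34, so none was past the threshold. In ChREBPβ WT without that array Klrd1 ran from 6.68 to 7.51 and in ChREBPβ KO from 7.11 to 7.58, and these ranges overlapped. Lck and Il7r, with 0.40 and 0.33, also had an unadjusted p under 0.05. Over all probes 6.48% were higher and 3.18% lower at that mark. Cd4 was lower at it, by a log2 difference of -0.39 (unadjusted limma p 0.0086, adjusted p 0.38). The count past the adjusted threshold was 0 of 29 with and without the array.

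Cd4 was lower in ChREBPβ KO by a log2 difference of -0.36 (SE 0.13, unadjusted limma p 0.0089, adjusted p 0.40). Its levels in ChREBPβ WT ran from 10.33 over a median of 10.78 to 11.45, and in ChREBPβ KO from 10.28 over 10.35 to 10.73, so that the groups overlapped. Within wash batches 1 to 4 it was -0.70, -0.42, -0.36 and -0.05. Zap70 differed by -0.63 (SE 0.31, unadjusted limma p 0.054).

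Without both isoforms, no member passed the threshold either. Between total ChREBP KO and its wild type, limma called 0 of 29 members, while 8.79% of all probes were called (5.35% higher and 3.44% lower). The unadjusted p was under 0.05 for 0 members, against 20.3% of all probes (12.9% higher and 7.47% lower). No member had groups without overlap, as 3.92% of probes had in the higher and 2.88% in the lower direction. The median was 0.10 beside 0.02 over all probes, with 14 of 19 T cell genes and 4 of 4 cytotoxic genes higher and 4 of 6 B cell genes lower. Cd3e differed by 0.09 (95% interval -0.24 to 0.42), Cd79a by -0.02 (-0.32 to 0.27) and Nkg7 by 0.14 (-0.64 to 0.93). The widest gap in the positive direction was that of Il7r, at 0.37, and in the negative direction that of Ms4a1, at -0.47 (-1.26 to 0.33).

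The arrays of Ms4a1 were spread widely. In total ChREBP WT it was at 8.98, 6.87, 8.51, 8.13, 6.66, 7.60 and 6.68 in replicates 2 to 8, and in total ChREBP KO at 7.60, 6.87, 7.11, 7.11 and 7.17. The wild-type arrays thus held both the lowest levels of this gene and levels as high as in ChREBPβ WT, where they ran from 7.42 to 8.84. Of the 5 total ChREBP KO arrays 4 lay below the ChREBPβ WT range.

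Whether the knockout effects differ between the lines was tested directly. Here limma called 0 of 29 members, against 3.21% of all probes (1.29% higher and 1.92% lower), and the unadjusted p was under 0.05 for 0 members against 12.8% of all probes (6.63% higher and 6.13% lower). The median over the members was 0.13 beside 0.00 over all probes, with 24 of 29 in the positive direction. Without ChREBPβ WT replicate 6 it was -0.05, with 11 of 29 in the positive direction. In the fit without that array 0 members were called in this test (1.18% of all probes higher, 1.81% lower) and 0 between total ChREBP KO and its wild type (5.24% higher, 3.44% lower).

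**Figure D3:**
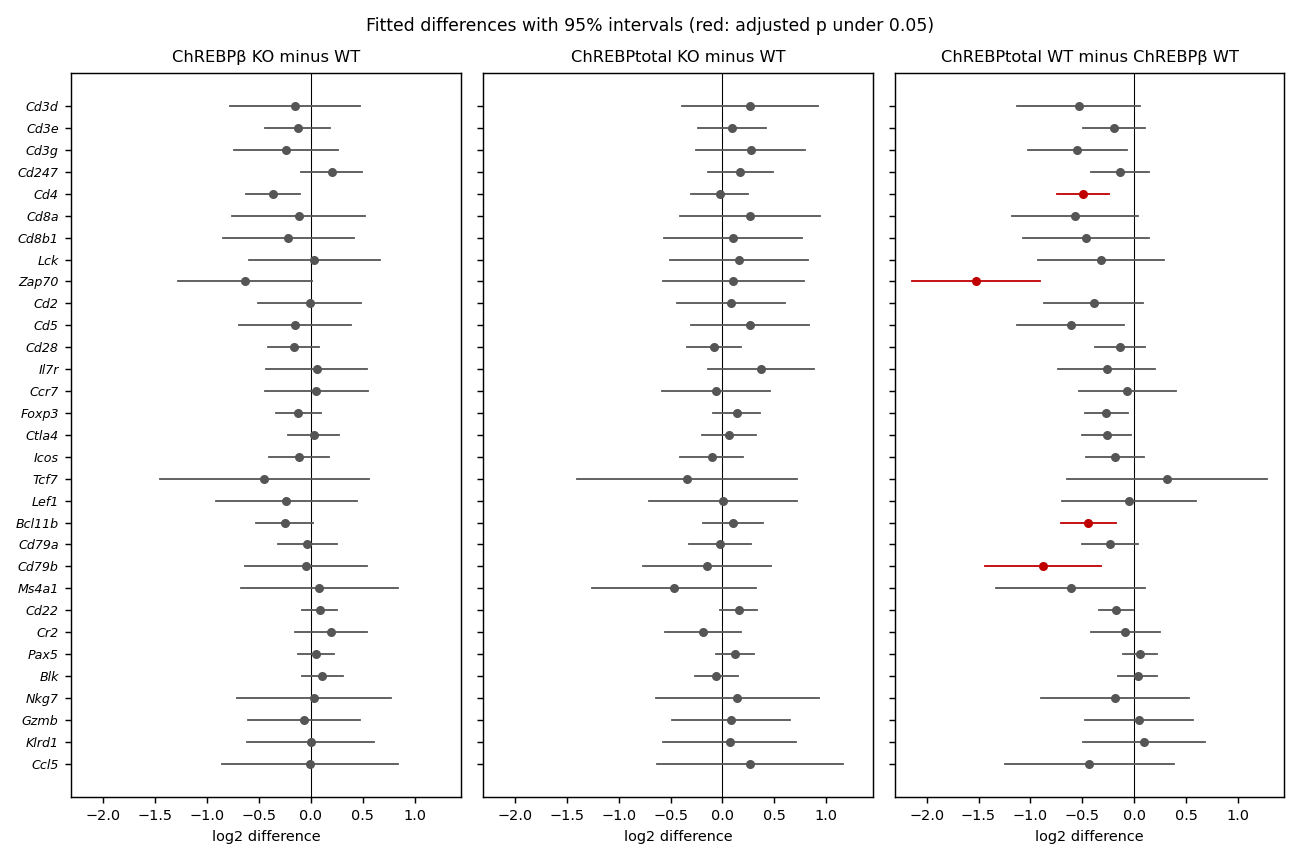
Fitted log2 differences of the 31 members (points) with 95% intervals (lines) in 3 comparisons, red where the adjusted p was under 0.05. No member was called in either knockout comparison, and Zap70, Cd4, Bcl11b and Cd79b were called lower in wild types of the total ChREBP line than of the ChREBPβ line.

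Between the wild types 4 members were lower in the total ChREBP line, 3 T cell genes and 1 B cell gene, and 0 were higher. For all probes, 7.26% were called lower and 14.7% higher, so that 4 of 29 members lower stood beside a background share of the same order. The unadjusted p was under 0.05 for 8 members, all lower, against 11.4% of all probes lower and 22.6% higher. No member had groups without overlap, as 1.69% of probes had in the lower and 3.37% in the higher direction. The median of the members was -0.27 beside 0.05 over all probes, and 25 of 29 were lower. T cell genes had a median of -0.32, B cell genes -0.20 and cytotoxic genes -0.07. Without ChREBPβ WT replicate 6 the overall median was -0.09 with 20 of 29 lower, and the cytotoxic genes had a median of 0.26 with 4 of 4 higher.

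Zap70, the kinase that binds the activated CD3 chains, had the widest gap. In ChREBPβ WT it was at 7.91, 9.12, 9.92, 9.55, 10.36, 9.73 and 8.28 in replicates 1, 2, 3, 4, 6, 7 and 8, and in total ChREBP WT at 8.20, 7.51, 7.80, 7.67, 7.77, 7.59 and 7.68 in replicates 2 to 8. Of the ChREBPβ WT arrays 6 lay above all total ChREBP WT arrays, and only replicate 1 fell among them. The fit gave -1.52 (SE 0.30, limma adjusted p 0.00097). By wash batch, from 1 to 4, it read -2.0, -1.61, -1.14 and -1.38, and it was -1.34 (adjusted p 0.0028) without ChREBPβ WT replicate 6. ChREBPβ KO lay between, with a range from 8.07 over 8.46 to 9.36, and total ChREBP KO ran from 7.57 over 7.76 to 8.12.

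Cd4 was lower in total ChREBP WT by a log2 difference of -0.49 (SE 0.12, limma adjusted p 0.0055), and -0.83, -0.52, -0.36 and -0.27 within the wash batches. It was at 10.33, 10.78, 11.45, 10.83, 10.60, 10.94 and 10.51 in ChREBPβ WT, in the order of replicates above, and between 10.20 and 10.37 in total ChREBP WT. The total ChREBP WT arrays had an SD of 0.06 and the ChREBPβ WT arrays one of 0.36, with replicate 3 highest and only replicate 1 in the range of the other line. A fainter Cd4 probe gave 0.06 in this comparison (adjusted p 0.65) and 0.00 in the ChREBPβ comparison (adjusted p 0.99), so both differences were seen with the brightest probe only.

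Bcl11b, which maintains T cell identity, was at 4.97 to 6.16 in ChREBPβ WT with a median of 5.24 and at 4.66 to 5.14 in total ChREBP WT with a median of 4.98. Its difference was -0.44 (SE 0.13, limma adjusted p 0.015), and -0.22, 0.04, -0.53 and -0.81 within the wash batches, thus of opposite sign in batch 2. Without ChREBPβ WT replicate 6, the highest array, it was -0.31 (adjusted p 0.023). The call was lost with the second-brightest probe (adjusted p 0.073), with only the arrays of both wild types (adjusted p 0.072) and with the liver mean as a covariate (adjusted p 0.49).

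Cd79b, the β chain of the B cell receptor's signalling pair, was at 10.46, 10.03, 9.85, 9.84, 10.05, 9.05 and 9.36 in ChREBPβ WT and at 9.96, 8.36, 9.49, 9.25, 8.03, 9.09 and 8.31 in total ChREBP WT. Both groups were broad and overlapped, and 3 total ChREBP WT arrays, replicates 3, 6 and 8, lay below every ChREBPβ WT array. The difference was -0.88 (SE 0.27, limma adjusted p 0.023), negative in every wash batch (-0.48, -1.67, -1.20 and -0.57). The call was lost when total ChREBP WT replicate 3, 6 or 8 or ChREBPβ WT replicate 1 or 2 was left out, with adjusted p-values up to 0.059. Ms4a1 went with it at -0.61 but was not past the threshold (adjusted p 0.22).

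Further members had an unadjusted limma p under 0.05 between the wild types without passing the adjusted threshold. Cd5 differed by -0.61 (adjusted p 0.084), Cd3g by -0.55 (adjusted p 0.092), Foxp3 by -0.27 (adjusted p 0.061) and Cd22, an inhibitory receptor of B cells, by -0.17 (adjusted p 0.12). Foxp3 ran from 5.73 to 6.35 in ChREBPβ WT and from 5.56 to 5.89 in total ChREBP WT, where 3 ChREBPβ WT arrays lay above all of the other line. Klrd1 was called only without replicate 6, higher in total ChREBP WT by 0.46 (SE 0.12, limma adjusted p 0.0092, with 12.6% of all probes called higher and 6.22% lower in that fit), with 7.31 to 7.63 in that group. With all arrays it differed by 0.09 (adjusted p 0.85). Replicate 6 was set apart on the levels of the members, Klrd1 among them, so the call without it is no independent result.

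Zap70 and Cd4 co-varied with liver transcripts over the 25 arrays. After group and wash batch were removed, Zap70 correlated with the mean of the 6 liver genes at Pearson r 0.64 and Spearman rho 0.75 over 25 arrays (permutation p 0.00064 and 3e-05, adjusted over 9 such relations 0.00072 and 4.5e-05), and at r 0.66 without the 2 arrays farthest in liver level. Cd4 did so at r 0.52 and rho 0.59 (permutation p 0.0075 and 0.0026, the adjusted values being the same), and at r 0.58 without the 2 farthest arrays. All 9 relations were chosen after the values were seen, so their p-values do not account for that choice. Those of Zap70 with Cd4, of Tcf7, of Cd79b and Ms4a1, and of Cd8a with Cd8b1 below are among them. Within ChREBPβ WT, Zap70 had r 0.93 and Cd4 r 0.81 with the liver mean (n = 7), and within ChREBPβ KO 0.80 and 0.71 (n = 6). In total ChREBP WT the values were 0.62 and 0.40 (n = 7). The 5 total ChREBP KO arrays, which had the lowest liver levels, are too few for a correlation to be read, and gave 0.51 for Zap70 and -0.06 for Cd4.

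Zap70 and Cd4 also went with each other, at r 0.69 and rho 0.69 (permutation p 0.00033 and 0.00022, adjusted 0.00042 and 0.00028), and at r 0.85 without ChREBPβ WT replicate 6. Cd3e and Cd4 were related more loosely (r 0.19). All 6 liver genes, such as Alb, the plasma protein albumin, were called lower in the wild types of the total ChREBP line, Alb by a log2 difference of -4.11 (SE 0.69, limma adjusted p 0.00029). With the liver mean as a covariate, an alternative chosen after seeing the data, 0 members were called between the wild types and the differences were -0.40 for Zap70 (adjusted p 0.58), -0.13 for Cd4 (adjusted p 0.70), -0.26 for Bcl11b (adjusted p 0.49) and -0.78 for Cd79b (adjusted p 0.32). In that fit 2893 of 40561 probes were called in all. The liver mean itself differed between the wild types, so that the covariate and the line cannot be told apart, and the part of liver RNA in these results was not tested. Of 4 kidney genes, 3 were also called lower in total ChREBP WT, beside 7.26% of all probes. ChREBPβ WT replicate 3 was highest in both the kidney mean and Cd4. Replicate 1, next in the kidney mean, had the lowest Cd4 of its group. The part of kidney RNA was not tested either.

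Tcf7 stood out on another array. In total ChREBP WT replicate 2 it was at 9.84, and in the other arrays of that group it was at 6.63, 6.56, 5.70, 6.13, 5.67 and 6.52. That array also had the highest mean of the 2 epididymis genes, Adam7, an epididymal surface protein, and Rnase10. Over the 25 arrays Adam7 ran from 4.31 to 15.71 and Rnase10 only from 8.35 to 9.26, so the mean mainly followed Adam7. Tcf7 correlated with the mean of the 2 epididymis genes at r 0.80 and rho 0.60 (permutation p 4e-05 and 0.0016, adjusted 6e-05 and 0.0017), and at r 0.46 without that array, so the size of the relation rested on it. Without that array and replicate 3 of the same group, r was 0.45. The part of epididymis RNA in the level of Tcf7 was not tested. Lef1 was at 7.89 there, the highest of its group, and followed Tcf7 over 25 arrays at r 0.77 and rho 0.74 (permutation p 1e-05 for both, the smallest that 100000 resamples can give), and at r 0.84 without that array.

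**Figure D4:**
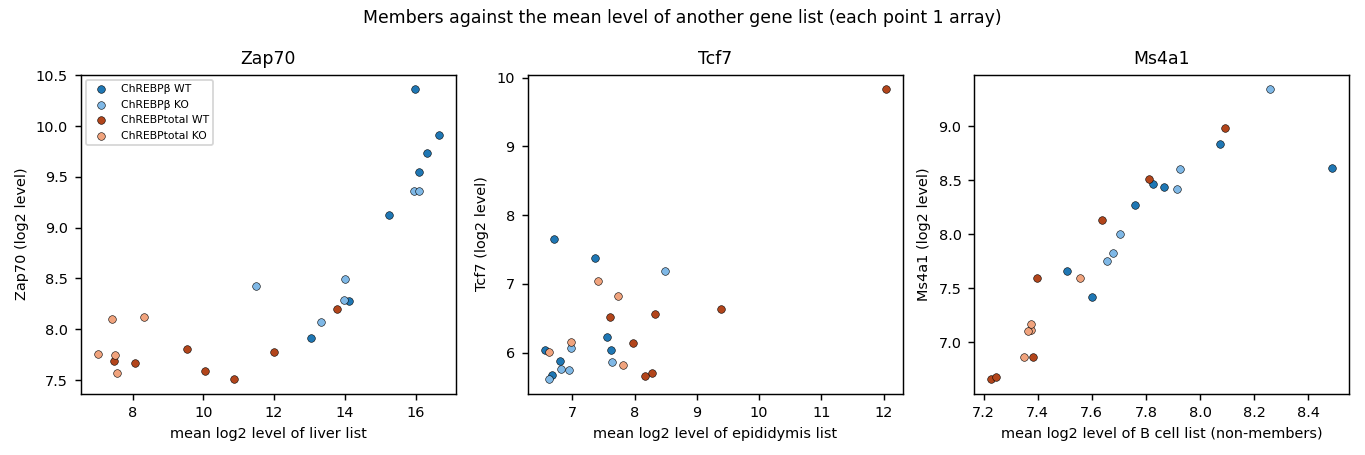
Levels of Zap70, Tcf7 and Ms4a1 (log2, 1 point per array, coloured by group) against the mean log2 level of liver genes, epididymis genes and B cell genes that are not members. Zap70 rises in the arrays with liver levels above 14, Tcf7 is out of range in the 1 array with an epididymis level of 12.03, and Ms4a1 follows the B cell genes along the whole range.

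Co-variation was compared within and between the lineages. Residuals from group and wash batch were correlated between members of the authors' table. Over 25 arrays the median Pearson r was 0.51 between T cell genes (171 pairs), 0.68 between T cell and cytotoxic genes (76 pairs) and 0.88 between cytotoxic genes (6 pairs). It was only 0.18 between B cell genes (15 pairs) no higher than the 0.19 between T and B cell genes (114 pairs) and the 0.20 between B cell and cytotoxic genes (24 pairs). Without ChREBPβ WT replicate 6 these medians were, in the same order, 0.19, 0.29, 0.58, 0.17, 0.14 and 0.11. With and without that array, T cell genes thus had a higher median r with cytotoxic genes than with each other. The common movement of T cell and cytotoxic genes was thus largely that of 1 array, while the B cell value was almost the same without it.

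Among 10 pairs, Cd3e followed Cd3d at r 0.75 and rho 0.70 (permutation p 2e-05 and 0.00017, adjusted over the 10 pairs 3.3e-05 and 0.00034), and at r 0.69 without the 2 arrays farthest from the median of Cd3e. It followed Nkg7 at r 0.80 and rho 0.77 (permutation p 1e-05 for both, adjusted 2e-05 and 2.5e-05), and at r 0.65 without the farthest 2. Cd3e and Cd8a gave r 0.62 and rho 0.57 (permutation p 0.00125 and 0.0036, adjusted 0.0018 and 0.0051) but r 0.28 without ChREBPβ WT replicate 6 (adjusted p 0.23). Without that array and ChREBPβ KO replicate 3, the farthest 2, r was 0.44, so the size of this relation depended on single arrays. Cd3e and Cd4 had r 0.19 and rho 0.19 (permutation p 0.36 and 0.37, adjusted 0.40 and 0.41) and r 0.49 without the 2 farthest arrays. The reference genes of T and B cells showed no relation past the threshold, with r 0.00 and rho -0.07 between Cd3e and Cd79a (permutation p 0.99 and 0.73, adjusted 0.99 and 0.73) and r -0.28 without the farthest 2. The probes of Cd3e agreed only loosely (r 0.49, and 0.24 without ChREBPβ WT replicate 6). Its pairs thus describe the brightest Cd3e probe, not T cells as a whole.

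B cell genes co-varied with and without the arrays that stood apart. Cd79a followed its partner Cd79b at r 0.81 and rho 0.80 and Ms4a1 at r 0.82 and rho 0.80 (permutation p 1e-05 for each, adjusted 2e-05 and 2.5e-05), and at r 0.73 and 0.76 without total ChREBP WT replicates 3 and 6. Cd79b and Ms4a1 were the closest B cell pair, at r 0.94 and rho 0.92 (permutation p 1e-05 for both, adjusted 1.8e-05 and 2.2e-05), and at 0.92 without the farthest 2. This pair was chosen after the values were seen, as were the relations to B cell genes outside the set, and the p-values do not account for that. Cr2 belonged to the same block, with a median r of 0.55 to the other B cell genes, whereas Cd22 and Pax5, the B cell identity factor, had medians of -0.06 and -0.00. The block also followed 17 B cell genes outside the set, with r 0.90 and rho 0.93 for Ms4a1 and r 0.86 and rho 0.83 for Cd79b (permutation p at most 2e-05, adjusted at most 3.6e-05). Without the 2 arrays farthest in that list r was 0.97 and 0.92. Cd79a and Ccr7 gave r 0.39 and rho 0.34 (permutation p 0.050 and 0.092, adjusted 0.062 and 0.12), and 0.43 without the farthest 2.

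In the cytotoxic group Nkg7 followed Ccl5 at r 0.96 and rho 0.89 (permutation p 1e-05 for both, adjusted 2e-05 and 2.5e-05) and still at r 0.83 without ChREBPβ WT replicate 6 and total ChREBP KO replicate 7. With Klrd1 it had r 0.88 and rho 0.65 (permutation p 1e-05 and 0.00055, adjusted 2e-05 and 0.00092), but r 0.40 without those arrays. The CD8 chains Cd8a and Cd8b1, a pair also chosen after the values were seen, were at r 0.98 and rho 0.87 (permutation p 1e-05 for both), and at 0.88 without replicate 6.

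**Figure D5:**
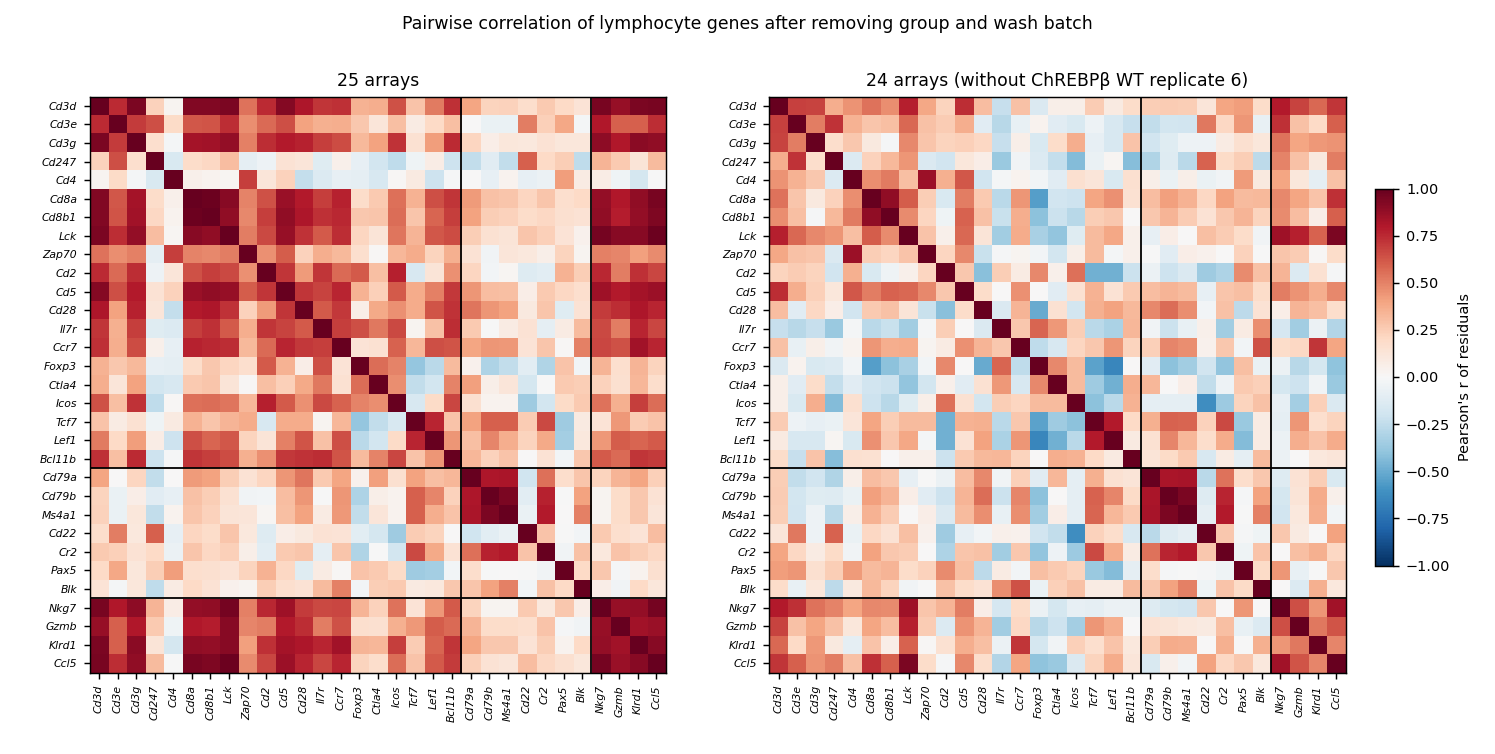
Pearson's r between the residuals of each pair of the 31 members, over 25 arrays (left) and over 24 without ChREBPβ WT replicate 6 (right); black lines separate T cell, B cell and cytotoxic genes. The red block of T cell and cytotoxic genes fades without that array, while the small block of Cd79a, Cd79b, Ms4a1 and Cr2 keeps its colour.

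The genes outside the set most like Nkg7, by Pearson's r of the same residuals over 25 arrays, were Ctsw (0.97), a protease of cytotoxic cells, Ifng (0.97), interferon-γ, Il2rb (0.96), Samd3 (0.95) and Lat (0.94), an adaptor of T cell receptor signalling. Without replicate 6, Ifng, Ctsw, Il2rb and Samd3 were still the nearest, at 0.82 to 0.89. For Cd79a they included Arrb2 (0.83), Cxcr5 (0.82), the receptor that leads B cells to follicles, Alox15 (0.80) and Serpinb2 (0.80), of which Alox15 and Arrb2 were again among the nearest 5 over 24 arrays. For Cd3e they were Arl6ip1 (0.87), Tbx21 (0.87), the T-bet factor of effector lymphocytes, Gvin1 (0.86), Gm4841 (0.85) and Cxcl10 (0.85), and none of these was among the nearest 5 without replicate 6, where Trim45 (0.91) came first.

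Probes of the same gene did not always agree in their residuals. The 2 probes of Cd3d gave residuals that correlated at r 0.98, those of Cd2 at 0.99, of Tcf7 at 0.99 and of Zap70 at 0.97, and both Cd3d probes were high on ChREBPβ WT replicate 6, by 2.64 and 2.61 above the median of the others. The probes of Cd3e correlated at only 0.49, and at 0.24 without ChREBPβ WT replicate 6. Those of Cd4 were at 0.13, with the fainter one at log2 levels of only 5.05 to 5.53. The first pair of Cd22 was at 0.17 and those of Ms4a1 at -0.32. Those of Bcl11b were at 0.64, but at 0.17 without ChREBPβ WT replicate 6. The brightest probe of Cd247 correlated with the others at 0.53, -0.14 and 0.28. Of these, the one at -0.14 was 0.59 above its median of the other arrays on ChREBPβ WT replicate 6, the brightest only 0.08. Of the Cd22 probes the fainter one followed the B cell genes (median r 0.60 over 17 genes), the brightest did not (-0.01), and 20 consecutive bases of the latter occur in the probes of 2 further genes. The first 30 bases of 2 probes each of Zap70, Cd4 and Cd22 are given so that the reading of these genes can be traced. They are in lower case throughout since no stretch is singled out. On mm9, the Zap70 probes lie at chr1:36839542-36839601 and chr1:36839315-36839374, the Cd4 probes at chr6:124814711-124814770 and chr6:124817706-124817765, and the Cd22 probes at chr7:31651249-31651308 and chr7:31651590-31651649.
Zap70 brightest: aacatcaccagtgggctgagaggatgtgtg
Zap70 second: tcgccccgacttcctgactgtggaacaacg
Cd4 brightest: gcccactccccactcctgcttcctgagctg
Cd4 second: tcaagtggtggcccctgagacagggctgtg
Cd22 brightest: gaaaaatgaaaaaccaaccaaccaaccaaa
Cd22 second: ggaggatgagagcatccattactcagagct

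The second probe of Zap70 gave -1.23 between the wild types (limma adjusted p 0.0029), in the direction of the brightest. For Bcl11b the second probe gave -0.33 (adjusted p 0.073).

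Other genes of the same cells were counted by list. In both knockout comparisons and in the test of their difference, 0 of 17 further T cell genes, 0 of 13 NK genes and 0 of 17 B cell genes were called. Over all probes the shares called were 0% in the ChREBPβ comparison, 8.79% in total ChREBP KO and 3.21% in the difference. In the ChREBPβ comparison no list could therefore hold a call. Between the wild types the T cell and NK lists again had 0 calls, with medians of -0.14 and -0.05. Of the 17 genes of the B cell list 3 were lower (background 7.26% lower and 14.7% higher) in total ChREBP WT, namely Pou2af1, a coactivator of immunoglobulin transcription (-1.23, SE 0.30, limma adjusted p 0.0053), Cd180 (-0.51, adjusted p 0.016) and Bank1 (-0.37, adjusted p 0.0496), while 1, Vpreb3, was higher (0.53, adjusted p 0.032). Among 9 further genes of fat regulatory T cells 1 was called, the chemokine receptor Ccr8, higher by 0.31 (adjusted p 0.026).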

How the data were processed

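RNA of pgWAT was hybridised by the authors to single-colour Agilent mouse arrays, and spots were measured with Agilent Feature Extraction 10.10.1.1, per the submitters' notes, which also name limma. The deposited table of the series gave 40561 probes as log2 values that the authors had quantile-normalised. The deposited scanner files gave each spot's median intensity, without background correction, and its flags. From these, 1 probe per member gene was taken, the one with the highest mean over 25 arrays. Differences were fitted with limma 3.58.1 under R 4.3.3 on all probes, with terms for the 4 groups and for wash batch (18 residual and 2.51 prior degrees of freedom). Each of the 4 wash batches held all groups. P-values were adjusted by Benjamini-Hochberg across the probes of the table, or across all 56605 gene probes of the scanner files for Ctla4 and Blk, and a gene was called at an adjusted p under 0.05. The fit was tested on simulated data first. Correlations use residuals from group and wash batch, with two-sided permutation tests of 100000 resamples, computed in Python 3.11.15 with numpy 2.4.6, scipy 1.17.1 and pandas 2.3.3, and figures were drawn with matplotlib 3.10.9. Members with an unadjusted p under 0.05 in any comparison are given by their levels, Cd3e, Cd79a and Nkg7 always, the others by ranges, and genes of other lists where called, up to 4 per list. Members, lists and named pairs were chosen with earlier results of these data known. Labels give 1 array per sample and name no animals, so p-values measure the spread between these samples. Probe positions are those of the array design on mm9, for which no annotation was used here, so exons and untranslated regions are not given. Start regions come from RefSeq on GRCm38.p6. Alternatives covered the intensities, filters, background correction, wash batch, replicate numbers, slides, array weights and single arrays left out. Among the genes nearest to a member, 1 is not reported here.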

Additional observations from a re-analysis of the deposited data

Results flagged for a closer look

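In a group of 4 to 10 arrays, a highest or lowest array was singled out where its gap to the next exceeded Dixon's 95% critical share of the group's range, which chance does in about 1 of 20 groups. Of 124 combinations of member and group, 22 (17.7%) were singled out, on 5 arrays.

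ChREBPβ WT replicate 6 accounted for 14 of these, all as the highest array of its group, with log2 levels of 14.03 for Ccl5, 11.04 for Cd2, 8.08 for Cd28, 10.64 for Cd3d, 9.16 for Cd3g, 8.99 for Cd5, 7.67 for Cd8a, 9.95 for Cd8b1, 7.99 for Gzmb, 7.36 for Icos, 10.34 for Il7r, 9.53 for Klrd1, 11.19 for Lck and 11.03 for Nkg7. The mean over the T cell genes, 9.12, and that over the cytotoxic genes, 10.64, were singled out on the same array.

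Total ChREBP WT replicate 2 was singled out as the highest of its group for Tcf7 (9.84), Zap70 (8.20) and the mean of the T cell genes (7.86). Total ChREBP KO replicate 7 was singled out in the same way for Cd2 (9.63), Cd8a (5.42) and Cd8b1 (7.73). Both arrays were also the highest of their groups for further members, such as Cd3d and Lck, by gaps that were not singled out. ChREBPβ KO replicate 4 was singled out for Lef1 (7.40, the next array being at 6.75) and Tcf7 (7.19, next 6.07), and ChREBPβ KO replicate 6 for Il7r (9.33, next 8.84).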

How the results depend on the processing

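The count of members called was 0 in both knockout comparisons and in the test of their difference under all alternatives run. Between the wild types it was 4 and came to 7 with array weights, 2 with only the arrays of the groups compared, 0 with the liver mean as a covariate and 2 with the second-brightest probe, the last 2 chosen after seeing the data, and to 3 to 5 when 1 array was left out. In the main fit 22% of all probes were called between the wild types. A shift of a few members between alternatives is therefore not read as a result about the members. With the second-brightest probe the Cd4 differences turned sign, to 0.0042 in the ChREBPβ comparison and 0.055 between the wild types. That Cd4 probe was faint, at 5.05 to 5.53, so these values cannot decide on the differences of the brightest. With only the arrays of the groups compared, the adjusted p of Bcl11b and Cd79b was 0.072. Without 1 array the median of the members ran from -0.18 to 0.14 in the ChREBPβ comparison, from -0.01 to 0.16 in the total ChREBP comparison, from -0.05 to 0.28 in their difference and from -0.35 to -0.09 between the wild types. The highest medians of the ChREBPβ comparison and between the wild types, and the lowest of the difference, were those without ChREBPβ WT replicate 6. Zap70, Cd4 and Bcl11b were called in all 25 fits that left out 1 array, with adjusted p-values up to 0.0033, 0.016 and 0.036, and Cd79b in 20.

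The labels do not say whether replicate numbers pair samples. The deviations of same-numbered arrays from their group means correlated at -0.43 to 0.39 in the ChREBPβ line (5 pairs) and -0.24 to 0.14 in the total ChREBP line (4 pairs), with 1 pair over 0.1 in each. Between the wild types of the lines they ran from -0.13 to 0.27 (6 pairs, 3 over 0.1). Only group means were removed here, so these values can neither show nor exclude pairing. With the replicate number as a fixed block, 6 members were called between the wild types, the 4 above with Cd5 (-0.69) and Foxp3 (-0.30), and 0 in the other comparisons. As a random block it had a consensus correlation of -0.0085 and left 4. These counts too stand beside the 22% of all probes called between the wild types in the main fit.

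Ctla4 and Blk lay near background on most arrays, so that differences in their levels are not read here.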

Other observations

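Plasma cell genes differed between the wild types. Of 8 such genes 5 were lower in wild types of the total ChREBP line than of the ChREBPβ line (limma adjusted p under 0.05, while 7.26% of all probes were lower). Jchain, which joins immunoglobulin subunits, had a difference of -2.49 log2 units (SE 0.43, limma adjusted p 0.00036). It was at 10.7 to 14.2 in ChREBPβ WT, 10.3 to 13.0 in ChREBPβ KO and 9.30 to 11.6 in total ChREBP WT, where 6 of 7 arrays lay below every ChREBPβ WT array. Mzb1, a chaperone of antibody secretion, differed by -1.42 (adjusted p 0.0016), the plasma cell factor Prdm1 by -0.80 (adjusted p 0.0031), without overlap of the groups, and Sdc1 (CD138) by -0.59 (adjusted p 0.029). Jchain was also the only one of the 8 called in a knockout comparison. It was higher in total ChREBP KO than in total ChREBP WT by 1.82 (SE 0.47, limma adjusted p 0.017), with arrays at 11.04 to 12.23.

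Other immune lists held calls too, beside shares over all probes of 14.7% higher and 7.26% lower between the wild types and of 5.35% higher and 3.44% lower in total ChREBP KO. Between the wild types, 2 of 6 neutrophil genes, S100a9 (1.47, limma adjusted p 0.0019) and Cxcr2 (0.70, adjusted p 0.00066) were higher in total ChREBP WT, as was 1 of 5 mast cell genes, the receptor Kit (0.66, adjusted p 0.0066). In total ChREBP KO, Clec10a of 16 macrophage genes was lower, with a difference of -0.52 (adjusted p 0.020), and Ly6g of 6 neutrophil genes by -0.56 (adjusted p 0.0016). The mean of the 6 neutrophil genes went the other way, at 8.59 ± 0.23 (SD, n = 5) in total ChREBP KO beside 8.34 ± 0.37 (SD, n = 7) in total ChREBP WT. Of 6 lymphoid stroma genes 0 were called in any comparison, with medians of 0.04, -0.10 and 0.12 for the ChREBPβ line, the total ChREBP line and the wild types.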
